A study of Mus musculus with 36 samples.

Results

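The T0901317 response of mice with 2 mutant copies of the liver X receptor alpha (LXRalpha) was set against that of mice with 1 mutant and 1 normal copy. The mutation replaces the tryptophan (W) at residue 441 of LXRalpha with phenylalanine (F) and was made by CRISPR. F/F mice carry it on both alleles and W/F mice on 1. For each gene the quantity described is a difference of responses on the log2 scale, the F/F response to T0901317 (agonist minus vehicle) minus the W/F response. It rests on 16 of the 36 liver libraries of the study, 4 for each of 4 groups, chosen by genotype, diet and compound alone.

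The groups were F/F with vehicle, F/F with T0901317, W/F with vehicle and W/F with T0901317. All were male mice of 11 to 12 weeks kept for 4 weeks on the Teklad diet TD.96121, which is rich in fat and cholesterol and promotes metabolic dysfunction-associated steatohepatitis (MASH). Over the final 2 weeks the mice were dosed orally once a day with vehicle or with 10 mg/kg of T0901317, a synthetic LXR agonist. Every mouse compared carried at least 1 mutant allele and ate the MASH diet, so neither the normal genotype nor chow is part of the difference. The other 20 libraries (W/W mice with 2 normal alleles, and chow mice from an independent cohort) entered the fit only through the estimate of spread. The labels name no tissue restriction of the mutation. They do not tie the 4 libraries of a group to separate cages or days, and the p-values measure only the spread between these libraries.

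LXRs are nuclear receptors that bind oxidised cholesterol and, together with the retinoid X receptor, sit on response elements of their target genes. In the liver they switch on fatty acid synthesis through Srebf1 and Scd1 and the export of sterols through Abcg5 and Abcg8. In macrophages they switch on cholesterol efflux through Abca1 and Abcg1, and they restrain many inflammatory genes. LXRalpha is also needed for the identity of Kupffer cells, the resident macrophages of the liver.

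A known LXR response element of the Srebf1 promoter is shown here, because the response of its 3 carriers can be compared with that of other LXR target genes. The letters GGGTTA and CGGTCA, with any 4 bases between them, were searched on both strands of the RefSeq promoter windows of GRCm38.p6, which run from 250 bases before to 50 bases after a start site. They occurred in 3 of 32851 windows (0.00913%), those of Abca1, Srebf1 and Fasn. The letters were taken from known elements of such genes, so the match is a description. A window was found for 13 of the 20 genes of the LXR list, and a second form, AGGTCA repeated with 4 bases between, occurred in 5 windows (0.0152%) and in 0 of the list. The 250 bases before each start site are printed on the gene's strand, with the element in capitals in its reverse orientation.
Abca1: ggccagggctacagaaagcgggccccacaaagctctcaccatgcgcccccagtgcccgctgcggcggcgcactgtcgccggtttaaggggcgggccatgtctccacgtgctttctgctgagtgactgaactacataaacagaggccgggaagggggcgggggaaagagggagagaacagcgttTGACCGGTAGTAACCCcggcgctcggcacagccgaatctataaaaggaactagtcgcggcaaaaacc
Srebf1: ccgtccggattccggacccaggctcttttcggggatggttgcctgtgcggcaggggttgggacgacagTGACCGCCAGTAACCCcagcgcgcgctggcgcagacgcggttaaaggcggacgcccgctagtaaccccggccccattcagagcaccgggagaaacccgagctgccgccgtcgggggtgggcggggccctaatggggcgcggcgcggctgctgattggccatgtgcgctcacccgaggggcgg
Fasn: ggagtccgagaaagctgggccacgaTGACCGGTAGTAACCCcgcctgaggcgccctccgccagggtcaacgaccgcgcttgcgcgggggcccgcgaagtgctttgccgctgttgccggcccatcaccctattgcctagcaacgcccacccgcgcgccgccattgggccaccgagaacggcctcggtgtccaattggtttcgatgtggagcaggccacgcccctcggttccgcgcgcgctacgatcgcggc
These stretches lie on the minus strand at chr4:53159896-53160145, chr11:60210472-60210721 and chr11:120824548-120824797, and the element starts 67, 182 and 225 bases before the start site. The Srebf1 stretch lies inside the annotated gene (chr11:60199089-60222581), before an internal start site.

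Expression was deposited as TPM (transcripts per 1000000). Depth, read off the step that 1 read makes in TPM, was 21.35 to 35.8 M reads in the F/F T0901317 libraries, 23.2 to 26.51 M in F/F vehicle, 22.64 to 25.94 M in W/F T0901317 and 23.45 to 34.48 M in W/F vehicle (M, 1000000). Composition differed more than depth. The 100 most abundant genes held 41.6% to 44.5% of the TPM in F/F vehicle libraries and 51.5% to 58.2% in W/F T0901317 libraries. On the first principal component of the 16 libraries (64.4% of the variance) F/F vehicle lay between -62.8 and -51.0 and W/F vehicle between -32.9 and -13.6. On the same axis F/F T0901317 lay between -23.95 and 16.6. Replicate 2 of W/F T0901317 lay at 53.99, apart from the other 3 at 94.5 to 107.3, and is named below wherever a result rests on it. Replicate 3 of F/F T0901317, at 16.6, lay nearest to W/F T0901317.

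As deposited, most genes with a called difference fell in W/F and fell less, or were not called, in F/F. Of 16638 genes tested with limma, 3191 (19.2%) had a difference of responses at a Benjamini-Hochberg adjusted p under 0.05. It was positive (F/F above W/F) in 2923 (17.6%) and negative in 268 (1.61%). The W/F response itself was called in 10971 genes (65.9%; 6.59% rose and 59.3% fell) and the F/F response in 5841 (35.1%; 3.95% rose and 31.2% fell). Of the 3191 genes, 1408 fell in W/F and were not called in F/F, and 1400 fell in both, by less in F/F. A further 33 fell in W/F and rose in F/F. Among the negative differences, 162 genes rose in W/F and were not called in F/F, 57 rose in both, and 3 rose in W/F and fell in F/F. For 93.3% of the 3191 genes the gap between the genotypes was larger with T0901317 than with vehicle.

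The sign of these counts depends on the scaling. The median gene had a difference of 0.25 as deposited, with median responses of -0.24 in F/F and -0.49 in W/F. After dividing each library by its median-of-ratios factor the median difference was 0.01, and 2403 genes (14.4%) were called, 1283 positive (7.71%) and 1120 negative (6.73%). The share of positive calls went from 91.6% to 53.4%. A set of 1533 genes was called in both scalings, 1277 positive and 256 negative, and none of them changed sign. Of the 2403 rescaled calls, 905 fell in W/F and were not called in F/F and 300 fell in both, by less in F/F, while 739 rose in W/F and were not called in F/F and 341 rose in both, by less in F/F. The genes that fell in W/F were thus a smaller part of the rescaled calls than of the deposited ones. Values below are as deposited, with the rescaled count of a list given where it differs. List counts are to be read beside the shares over all genes given here and in the paragraph before. After rescaling the F/F falls of Gpnmb, Lyz2, Ccl2, Cd14 and Plin3 and the W/F fall of Cd5l, described below, were not called. Leaving out W/F T0901317 replicate 1 brought the 3191 calls down to 1908, leaving out replicate 2 of that group brought them up to 4127, and leaving out both libraries that stand apart gave 4825. The F/F calls numbered 3248 without F/F T0901317 replicate 3 and 2712 after rescaling (16.3%; 8.32% rose and 7.98% fell). The W/F calls numbered 8446 after rescaling (50.8%; 23.6% rose and 27.1% fell). Between the genotypes, 3552 genes (21.3%; 10.6% rescaled) differed with vehicle and 10409 (62.6%; 40.3% rescaled) with T0901317.

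**Figure D1:**
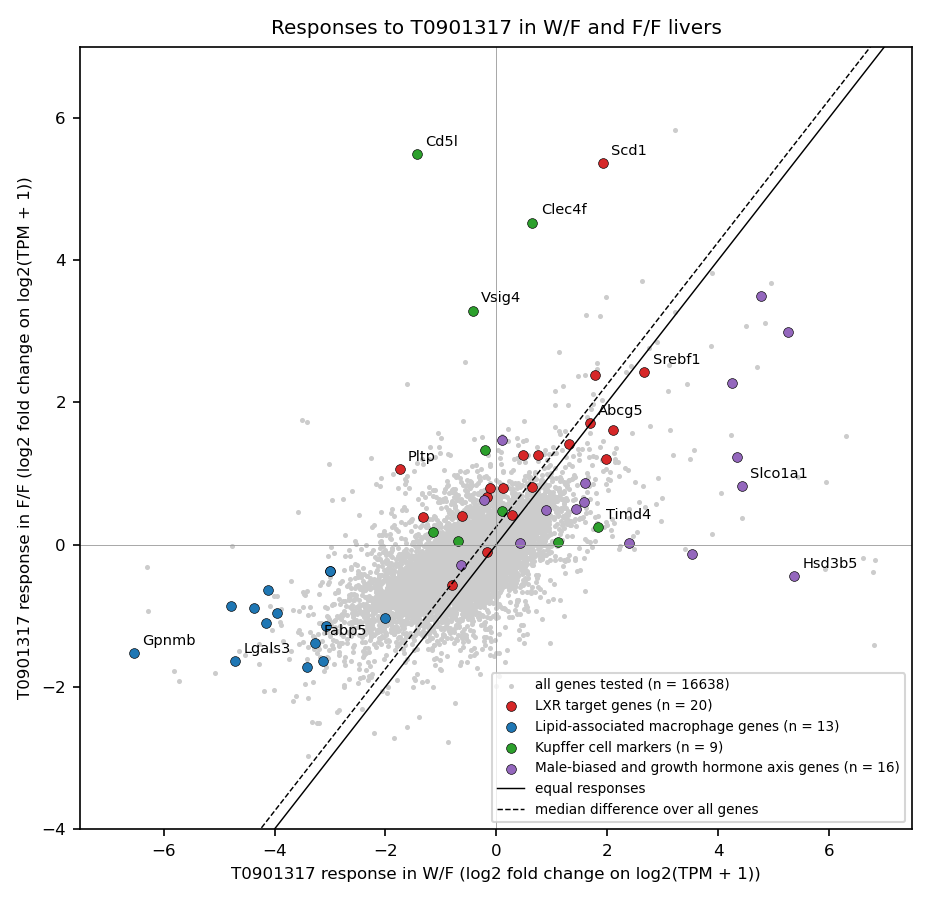
Log2 response to T0901317 in W/F (horizontal) and in F/F (vertical) for 16638 genes, with 4 gene lists in colour. The solid line marks equal responses and the dashed line the median difference of 0.25. Lipid-associated macrophage genes lie to the left and above the lines, and the called genes of the male-biased list to the right and below.

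The receptor was examined first. Nr1h3, the usual symbol of the LXRalpha gene (chr2:91184061-91202834), averaged 104 ± 14.4 TPM in F/F vehicle, 96.3 ± 5.30 in F/F T0901317, 108 ± 9.04 in W/F vehicle and 96.03 ± 11.0 in W/F T0901317 (SD, n = 4 each). The 4 ranges overlapped, and the difference of responses was 0.08 ± 0.15 (SE, limma adjusted p = 0.754). The labels pair LXRalpha with the symbol Nr1h2, which usually names LXRbeta. Nr1h2 averaged 47.2 ± 2.57, 39.9 ± 3.83, 39.1 ± 1.06 and 27.5 ± 5.52 TPM in the same order, with a difference of 0.27 ± 0.15 (limma adjusted p = 0.181; 0.38 and called without W/F T0901317 replicate 2). A substitution of 1 codon leaves the transcript in place, so neither level checks the genotype labels.

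Some LXR target genes had a positive difference, and for Abcg5, Abcg8 and Srebf1 no difference was called. A positive difference was a larger rise in F/F for Scd1, but came with a fall in W/F for Pltp and Abcg1. Lpl also belongs to the lipid-associated macrophage genes described below, all of which fell in W/F. Of the 20 genes of the list, 15 rose and 1 fell in F/F, and 11 rose and 5 fell in W/F (17 and 1, and 15 and 3, after rescaling). The difference was called in 9, all positive, against 17.6% of all genes, and its median over the list was 0.56 against 0.25 over all genes. After rescaling 5 of the 9 remained called (Scd1, Pltp, Lpl, Abcg1 and Mylip), with a list median of 0.21. Calls for Abca1, Apoc1 and Rnf145, among others, did not hold in that scaling.

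Srebf1, which encodes the transcription factor that drives fatty acid synthesis genes, rose in both genotypes. It stood at 22.5, 22.6, 23.3 and 26.6 TPM in the F/F vehicle libraries and at 145, 146, 122 and 117 with T0901317. Among W/F mice it stood at 80.6, 58.5, 49.9 and 58.0 TPM with vehicle and at 470, 341, 360 and 413 with T0901317. No treated library overlapped a vehicle library of its genotype, and the treated F/F mice remained below every treated W/F mouse. The log2 response was 2.43 in F/F and 2.67 in W/F, and their difference, -0.24 ± 0.31 (SE), was not called (limma adjusted p = 0.608).

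Abcg5, a part of the sterol exporter of bile and gut, also rose in both genotypes. Its TPM were 39.4, 37.4, 31.8 and 40.3 in F/F vehicle and 119, 114, 151 and 112 in F/F T0901317. In W/F they were 60.4, 81.3, 69.2 and 65.4 with vehicle and 181, 226, 226 and 270 with T0901317. The response was 1.71 in F/F and 1.69 in W/F, with a difference of 0.02 ± 0.33 (limma adjusted p = 0.979). Its partner Abcg8 had responses of 1.61 and 2.11, and the difference of -0.50 ± 0.39 was not called (limma adjusted p = 0.379). Lpcat3, which loads phospholipids with polyunsaturated fatty acids, rose by 0.81 in F/F and 0.65 in W/F. Cyp7a1, the rate-limiting enzyme of bile acid synthesis, rose by 2.38 and 1.77 (difference 0.61 ± 0.63, limma adjusted p = 0.525).

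Scd1, the desaturase that makes oleate from stearate, gave the largest difference of the list. Its TPM were 11.2, 15.0, 13.7 and 12.6 in F/F vehicle and 491, 697, 559 and 583 in F/F T0901317. In W/F they were 322, 616, 612 and 504 with vehicle and 2253, 1810, 1704 and 1834 with T0901317. F/F mice started far below W/F mice, and with the agonist they reached the range of W/F mice on vehicle. The response was 5.36 in F/F and 1.92 in W/F, a difference of 3.44 ± 0.42 on the log2 scale (limma adjusted p = 5.77e-06). On the linear scale the sign turns, since the mean rose from 13.1 to 583 TPM in F/F and from 514 to 1900 TPM in W/F. Scd1 was 1 of 123 called genes (3.85%) whose difference of mean TPM had the opposite sign to the difference of logs, all of them positive on the log scale. Its gene lies at chr19:44394455-44407879.

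Pltp, which transfers phospholipids between lipoproteins, moved in opposite directions. It stood at 19.3, 24.0, 14.1 and 21.8 TPM in F/F vehicle and at 38.2, 45.5, 33.9 and 50.6 in F/F T0901317. In W/F livers it stood at 65.6, 66.6, 73.9 and 64.5 with vehicle and at 15.9, 35.0, 16.8 and 15.3 with T0901317. Treated and vehicle libraries did not overlap in either genotype. Pltp rose by 1.06 in F/F and fell by 1.74 in W/F, a difference of 2.80 ± 0.52 (limma adjusted p = 0.000584).

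Of the cholesterol efflux genes of macrophages, Abcg1 had 32.5, 35.1, 33.2 and 41.0 TPM in F/F vehicle and 57.0, 52.6, 36.9 and 41.5 in F/F T0901317, which overlap at their edges. With 1 normal allele it had 31.3, 42.7, 49.5 and 32.9 TPM with vehicle and 9.27, 31.8, 12.8 and 12.5 with T0901317. Replicate 2 was the treated W/F library that reached the vehicle range. Abcg1 fell by 1.32 in W/F, was not called in F/F (0.38), and had a difference of 1.70 ± 0.33 (limma adjusted p = 0.000946). Abca1 averaged 37.2 TPM in F/F vehicle and 59.7 in F/F T0901317, against 48.2 and 42.2 in W/F. Its difference was 0.84 ± 0.21 (limma adjusted p = 0.00696), and 0.51 after rescaling (adjusted p = 0.11). Among the 3 genes with the element in the printed promoters, the difference was thus positive and called for Abca1 as deposited, and not called for Srebf1 and Fasn (-0.77 ± 0.59, limma adjusted p = 0.367).

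**Figure D2:**
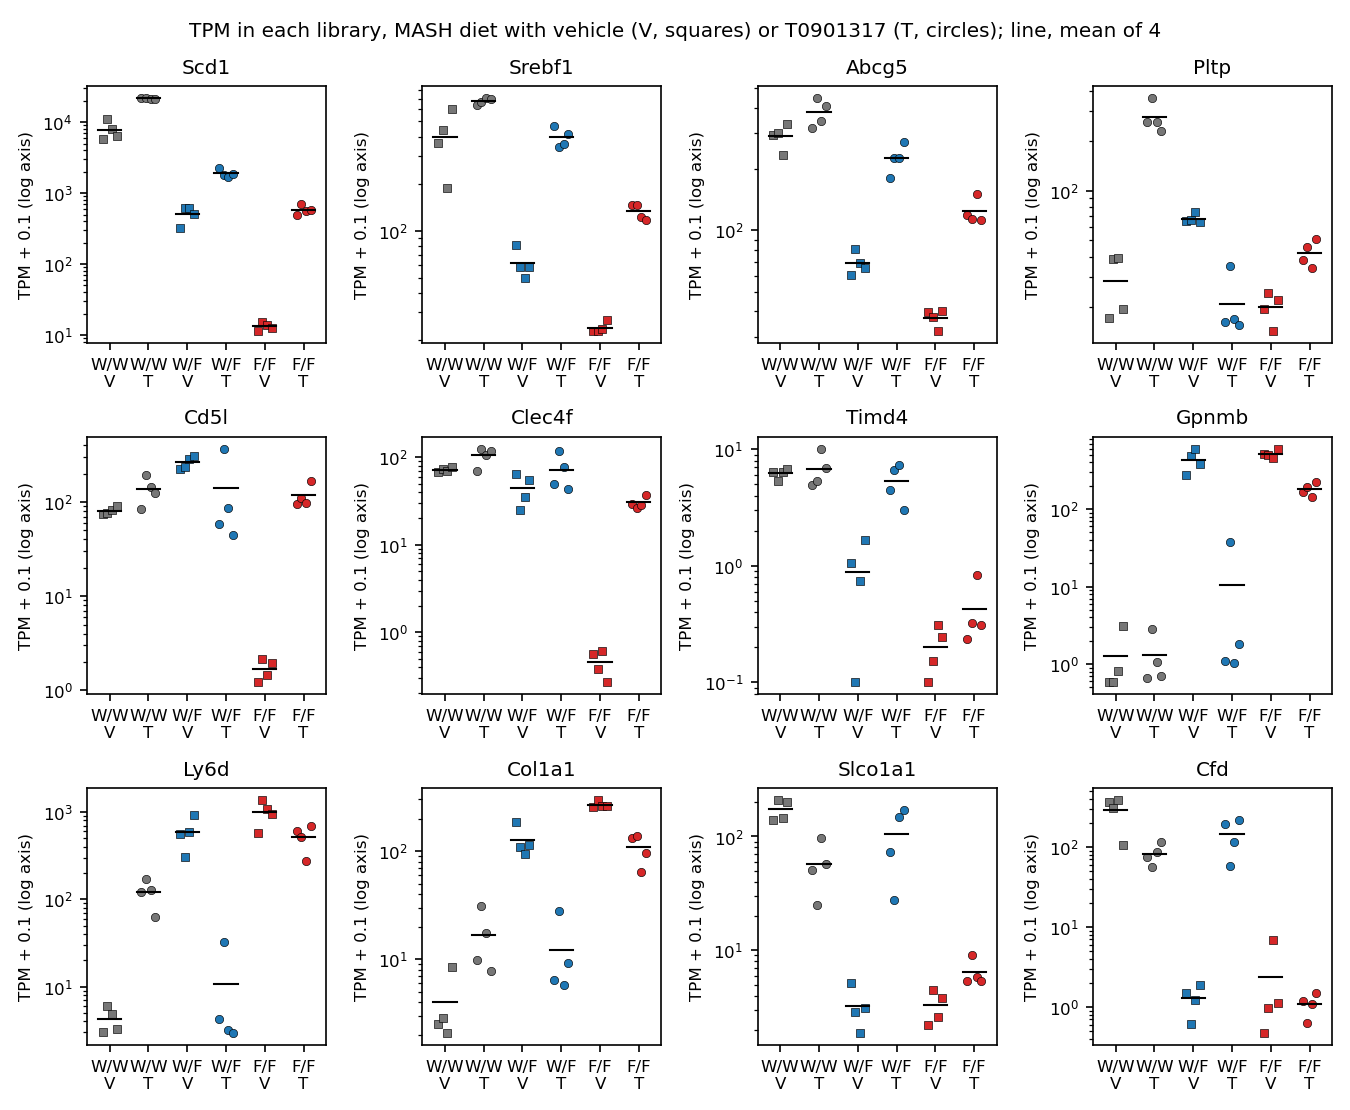
TPM plus 0.1 on a log axis for 12 genes in each MASH-diet library, by genotype and compound, with squares for vehicle, circles for T0901317 and a line at the mean of 4. W/W is drawn for reference. Srebf1 and Abcg5 shift by similar steps in W/F and F/F, and Gpnmb and Ly6d drop far more in W/F. Slco1a1 and Cfd climb far in W/F, while their F/F responses were not called.

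Fatty acid and triglyceride synthesis genes were positive about as often as all genes. Of 20 genes, 3 had a positive difference (Scd1, Scd2 and Acsl3) and 0 a negative one (17.6% and 1.61% of all genes). The list median was -0.03, below the 0.25 over all genes, and -0.36 after rescaling, against 0.01. After rescaling Scd1 remained and Dgat1, the last enzyme of triglyceride synthesis, was negative. Scd2, a second desaturase, had a difference of 1.43 (limma adjusted p = 0.024) that lost its call in 4 of 16 fits without 1 library (without F/F T0901317 replicate 1 or 2, F/F vehicle replicate 1 or W/F T0901317 replicate 1). Thrsp, a lipogenic nuclear protein, rose by 3.68 in F/F and 4.95 in W/F, and the difference of -1.27 was not called. The positive count was 1 without F/F T0901317 replicate 1, and 2 to 4 without any other library. Pnpla3, a lipase-like protein of lipid droplets, averaged under 2 TPM in each group and had a difference of -0.48 ± 0.47 (limma adjusted p = 0.503).

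Genes of cholesterol synthesis and uptake were called in 2 of 24, both negative (1.61% of all genes were negative), with a median of -0.03. Tm7sf2, a sterol reductase of the pathway, averaged 9.33 ± 0.618 TPM in F/F vehicle, 11.5 ± 0.413 in F/F T0901317, 8.77 ± 1.02 in W/F vehicle and 24.2 ± 6.03 in W/F T0901317 (SD, n = 4). It rose by 1.34 in W/F, and its difference was -1.07 ± 0.22 (limma adjusted p = 0.00154). Ebp, a sterol isomerase, rose by 0.33 in F/F and 0.71 in W/F (difference -0.37 ± 0.11, limma adjusted p = 0.0146). After rescaling Mvk and Sqle were also negative.

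Genes of fatty acid oxidation and PPAR-alpha targets leaned the other way from the median gene. Of 20, 2 were negative and 0 positive, with a median of -0.16, and 8 were negative after rescaling. Cpt2, which completes the entry of fatty acids into mitochondria, had a difference of -0.43 that lost its call in 11 of 16 fits without 1 library. The count of negative genes was 4 without W/F T0901317 replicate 2 or F/F T0901317 replicate 3, and 1 without each of 11 other libraries.

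Lipid droplet genes held 1 positive and 4 negative differences of 15 (median -0.17), and 1 and 5 after rescaling. G0s2, an inhibitor of adipose triglyceride lipase, had 197, 120, 236 and 114 TPM in F/F vehicle and 110, 224, 238 and 92.2 in F/F T0901317. In W/F it had 99.3, 43.1, 41.9 and 75.0 TPM with vehicle and 401, 485, 305 and 236 with T0901317. The F/F groups overlapped throughout, and every treated W/F library lay above every vehicle library of that genotype. G0s2 rose by 2.49 in W/F, and the difference was -2.54 ± 0.60 (limma adjusted p = 0.00443). Lipe, the hormone-sensitive lipase, and Fitm2, a droplet-forming protein, had differences of -0.96 and -0.58. Fitm1, a relative of Fitm2, had -1.26 and lost its call in 11 of 16 fits without 1 library. Plin3, a droplet coat protein also found in macrophages, fell by 0.55 in F/F and by 1.52 in W/F (difference 0.98 ± 0.22, limma adjusted p = 0.00274). The negative count of this list was 2 without F/F T0901317 replicate 1 or W/F vehicle replicate 3.

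Few bile acid genes had a called difference. Of 21 tested, 3 were positive (17.6% of all genes were) and 2 negative, with a median of 0.03. The positive ones were the canalicular and basolateral exporters Abcb4 (0.85), Abcc2 (1.03 ± 0.23, limma adjusted p = 0.00326) and Abcc4 (2.12 ± 0.40, limma adjusted p = 0.000683). Abcc4 fell by 1.98 in W/F and was not called in F/F, and Abcb4 was not called after rescaling. The negative ones were the uptake transporter Slco1a1 and Cyp7b1, an enzyme of the alternative synthesis pathway. Cyp7b1 rose by 2.39 in W/F (difference -2.37, limma adjusted p = 0.0278), and lost its call without F/F T0901317 replicate 1, F/F vehicle replicate 1, W/F T0901317 replicate 3 or 4, or W/F vehicle replicate 3 (highest adjusted p 0.0665). After rescaling 6 genes were negative, among them the uptake transporter Slc10a1. The negative count was 5 without W/F T0901317 replicate 2 or F/F T0901317 replicate 3, 4 without W/F vehicle replicate 1, and 1 in 5 other such fits.

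Slco1a1 (chr6:141907282-141946962) stood at 2.09, 4.41, 2.49 and 3.73 TPM in F/F vehicle and at 5.32, 9.03, 5.67 and 5.32 in F/F T0901317. Among W/F mice it stood at 5.01, 2.74, 1.76 and 3.00 with vehicle and at 72.8, 27.5, 147 and 171 with T0901317. Every treated W/F library lay above all the other mutant libraries, with replicate 2 the lowest. The treated F/F libraries lay above every F/F vehicle library. The W/F response was 4.43, the F/F response of 0.82 was not called, and the difference was -3.61 ± 0.56 (limma adjusted p = 0.0001).

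Targets of the xenobiotic receptors PXR and CAR were positive in 4 of 14 (17.6% of all genes were) and negative in 0. Their median was 0.04, below the 0.25 over all genes. After rescaling 3 were positive and 1 negative (7.71% and 6.73% of all genes). Gstm3, a glutathione transferase, averaged 2591 ± 422 TPM in F/F vehicle, 3729 ± 1520 in F/F T0901317, 2936 ± 326 in W/F vehicle and 366 ± 419 in W/F T0901317 (SD, n = 4). The 3 lowest treated W/F libraries had 117 to 184 TPM and replicate 2 had 992, and all 4 lay below the vehicle libraries. Gstm3 fell by 3.57 in W/F, with a difference of 4.03 ± 0.74 (limma adjusted p = 0.000522). It shares 28.8% of its 50-base exon windows with other genes, so its level is uncertain. Abcb1a, a drug efflux pump that shares 17.6% of its windows, fell by 1.91 in W/F (difference 2.00 ± 0.45, limma adjusted p = 0.003). Cyp2c55 and Cyp2c29, inducible cytochromes of these receptors, had differences of 1.76 and 1.08.

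Genes with a known male bias in the mouse liver were often negative. Of 16 male-biased or growth hormone axis genes, 8 were negative and 0 positive (10 and 0 after rescaling), against 1.61% of all genes, with a median of -1.13. In W/F 13 rose and 1 fell (13 and 0 after rescaling), and in F/F 7 rose. The mean summed TPM of the list rose by similar proportions in both genotypes, from 7148 to 18530 in F/F and from 13450 to 34950 in W/F. Slco1a1 and Cyp7b1 belong to this list as well as to the bile acid list. Hsd3b5, a male-biased steroid dehydrogenase, stood at 0.661, 0.743, 0.736 and 0.735 TPM in F/F vehicle and at 0.188, 0.237, 0.219 and 0.416 in F/F T0901317. In W/F livers it stood at 0.542, 0.152, 0.525 and 0.464 with vehicle and at 30.7, 5.59, 234 and 235 with T0901317. The treated W/F libraries spread over a wide range, all above the other groups. The difference was -5.81 ± 1.27 (limma adjusted p = 0.00237), with 21.2% of its exon windows shared with other genes.

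Elovl3, a fatty acid elongase with male-biased expression, averaged 1.06 and 4.23 TPM in F/F vehicle and T0901317, against 5.13 and 122 in W/F (difference -3.11 ± 0.80, limma adjusted p = 0.00744). Sult2a8, a bile acid sulfotransferase, rose in both genotypes, from 4.03 to 44.4 TPM in F/F and from 13.9 to 561 TPM in W/F (difference -2.29 ± 0.43, limma adjusted p = 0.000584). Serpina1e, an alpha-1 antitrypsin gene that shares 34.6% of its exon windows, rose by 3.54 in W/F (difference -3.67 ± 0.81, limma adjusted p = 0.00259). Cyp4a12b, a fatty acid hydroxylase that shares 49.4%, rose by 1.21 in F/F and 3.49 in W/F (difference -2.28 ± 0.55, limma adjusted p = 0.00495).

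Major urinary proteins (Mup), the abundant male-biased secretory products of the mouse liver, can hardly be told apart by short reads, so their sum is given. It was 6922, 8522, 5592 and 3407 TPM in F/F vehicle and 17340, 18520, 15470 and 16880 in F/F T0901317. With 1 normal allele it was 18450, 7970, 6483 and 14920 TPM with vehicle and 25060, 12820, 43900 and 39340 with T0901317. The F/F groups did not overlap and the W/F groups did, through replicate 2. The mean sum rose in both genotypes, from 6111 to 17050 TPM in F/F and from 11950 to 30280 TPM in W/F. These rises of the sum were not compared by a test. Of 20 Mup genes tested, 17 rose in W/F and 3 in F/F, and 14 had a negative difference in either scaling (median -2.52). Over all genes 1.61% were negative as deposited and 6.73% rescaled. The single-gene counts rest on reads that can hardly be assigned to 1 Mup gene. The sum does not share their direction, since relative to vehicle its mean rose no less in F/F than in W/F. Mup7, which shares 86.7% of its exon windows, had 10.9, 4.35, 9.38 and 12.3 TPM in F/F vehicle and 2.19, 2.02, 5.70 and 1.69 in F/F T0901317. In W/F it had 3.4, 4.44, 7.88 and 4.57 TPM with vehicle and 305, 52.9, 3835 and 2978 with T0901317 (difference -8.23 ± 1.49, limma adjusted p = 0.000432).

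Female-biased genes were positive in 2 of 5 tested (17.6% of all genes were; median 1.27). A further 5 of the list did not reach the filter on low values. Cyp2a4, a steroid hydroxylase, had 13, 4.97, 12.0 and 14.2 TPM in F/F vehicle and 25.0, 36.8, 60.4 and 34.7 in F/F T0901317. Among W/F mice it had 20.6, 90.8, 122 and 104 TPM with vehicle and 9.67, 10.1, 2.68 and 2.63 with T0901317. It rose by 1.76 in F/F and fell by 3.50 in W/F, without overlap in either genotype, a difference of 5.25 ± 0.71 (limma adjusted p = 1.83e-05). It shares 38% of its exon windows with other genes. Cyp2b9 had a difference of 3.87 ± 1.26 (limma adjusted p = 0.0301) that was not called after rescaling and was lost in 6 of 16 fits without 1 library. All mice were male, so these are levels within males.

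**Figure D3:**
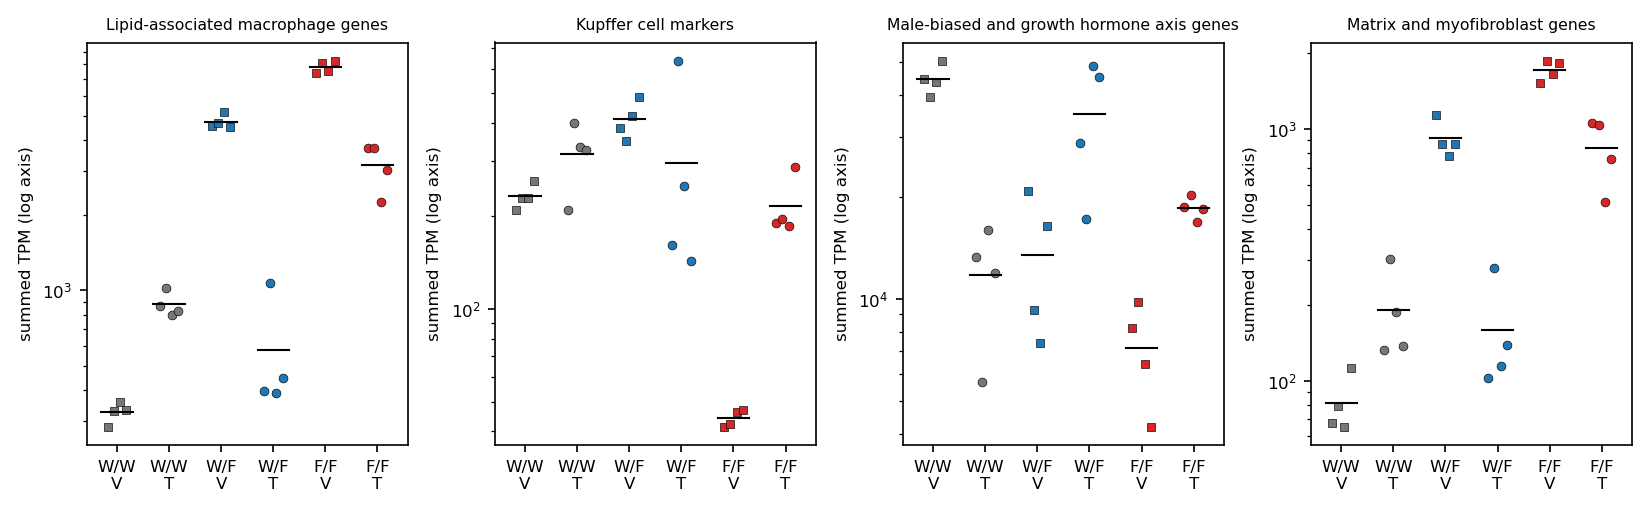
Summed TPM on a log axis of 4 gene lists in each MASH-diet library, by genotype and compound (squares vehicle, circles T0901317, line at the mean of 4). On this log axis lipid-associated macrophage and matrix sums drop furthest in W/F, and the Kupffer sum climbs in F/F. Among the mutants the mean sum of male-biased genes is highest in W/F with T0901317, with replicate 2 low. W/W with vehicle is higher still for that list, at 39380 to 50290 TPM.

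Kupffer cell markers gave the largest positive difference and some of the negative ones. Of 9 markers tested, 4 were positive (Cd5l, Clec4f, Vsig4 and Spic) and 2 negative (Timd4 and Cd163), in both scalings, with a median of 1.32. The summed TPM of the 9 was 41.5 to 47.0 in F/F vehicle and 186 to 289 in F/F T0901317, and 351 to 485 in W/F vehicle and 143 to 636 in W/F T0901317. In F/F T0901317 the mean sum was 215 TPM, of which Cd5l made up 117. By the test 3 of the 9 markers rose in F/F. In bulk tissue, fewer cells of a type and less RNA per cell cannot be told apart.

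Cd5l, a secreted scavenger protein of resident macrophages (chr3:87357881-87371073), had 1.12, 2.04, 1.34 and 1.83 TPM in F/F vehicle and 95.7, 109, 96.8 and 168 in F/F T0901317. In W/F livers it had 223, 235, 285 and 308 TPM with vehicle and 57.8, 367, 86.9 and 44.9 with T0901317. In F/F every treated library lay far above vehicle. In W/F 3 treated libraries lay below vehicle and replicate 2 lay above it. Cd5l rose by 5.49 in F/F and fell by 1.44 in W/F, and the difference was 6.93 ± 0.54 (limma adjusted p = 1.52e-09). Without W/F T0901317 replicate 2 the Cd5l difference was 7.57. With T0901317 the gap between the genotypes was 0.25 and not called, against -6.68 with vehicle.

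Clec4f, a lectin found on Kupffer cells, stood at 0.460, 0.280, 0.508 and 0.168 TPM (4 to 11 reads) in F/F vehicle and at 29.3, 26.6, 28.2 and 37.3 in F/F T0901317. With 1 normal allele it stood at 64.6, 25.0, 34.9 and 55.4 with vehicle and at 50, 117, 77.8 and 43.1 with T0901317. It was near the limit of detection in untreated F/F mice alone among the 4 groups, and the W/F groups overlapped. Clec4f rose by 4.53 in F/F and 0.65 in W/F (difference 3.88 ± 0.39, limma adjusted p = 2.16e-07). Vsig4, a complement receptor of resident macrophages, rose by 3.29 in F/F and had a difference of 3.71.

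Timd4, a phosphatidylserine receptor of long-lived Kupffer cells, did not share this pattern. It had 0, 0.0530, 0.210 and 0.143 TPM in F/F vehicle and 0.134, 0.226, 0.730 and 0.212 in F/F T0901317, which is 0 to 14 reads per library. In W/F it had 0.949, 0, 0.642 and 1.56 TPM with vehicle and 4.36, 6.55, 7.27 and 2.93 with T0901317. It rose by 1.83 in W/F and was not called in F/F (difference -1.58 ± 0.33, limma adjusted p = 0.00151). Cd163, a haemoglobin scavenger receptor, likewise rose by 1.11 in W/F, from a mean of 0.272 to 1.79 TPM, and averaged 0.0516 and 0.0773 TPM in F/F (difference -1.08 ± 0.26, limma adjusted p = 0.00534). In treated F/F mice Cd5l and Clec4f thus stood at 26.6 TPM or more and Timd4 and Cd163 under 1 TPM.

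Lipid-associated macrophage genes were positive in 13 of 13, against 17.6% of all genes, in both scalings and in each of the 16 fits without 1 library. Their median difference was 3.00. All 13 fell in W/F, and 9 of the 13 fell in F/F, by less (6 after rescaling). Their summed TPM was 7398, 8103, 7512 and 8277 in F/F vehicle and 3695, 3722, 2259 and 3020 in F/F T0901317. Among W/F mice it was 4525, 4689, 5146 and 4490 with vehicle and 395, 1074, 389 and 445 with T0901317. The treated F/F mice stayed above every treated W/F mouse, replicate 2 included. In TPM the mean sum fell further in F/F (7822 to 3174) than in W/F (4712 to 576), so for the sum the smaller F/F fall holds on the log scale only. The summed markers of recruited macrophages and monocytes also fell in both genotypes, while the summed Kupffer cell markers, with Cd5l the largest part, rose in F/F. The part of either in this result was not tested.

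Gpnmb, a membrane glycoprotein of lipid-laden macrophages (chr6:49036546-49070929), had 515, 497, 461 and 601 TPM in F/F vehicle and 165, 194, 143 and 225 in F/F T0901317. In W/F livers it had 278, 479, 597 and 385 TPM with vehicle and 1.00, 37.7, 0.931 and 1.74 with T0901317. It fell by 1.52 in F/F and by 6.54 in W/F (difference 5.02 ± 0.75, limma adjusted p = 5.61e-05). With vehicle the Gpnmb levels of the genotypes overlapped, and with T0901317 they did not. Trem2, the lipid receptor of these macrophages, had a difference of 3.00, and Spp1, osteopontin, one of 1.49. Mmp12, macrophage elastase, fell by 4.78 in W/F and was not called in F/F (difference 3.92 ± 0.50, limma adjusted p = 9.1e-06).

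Markers of recruited macrophages and monocytes were positive in 5 of 8 and negative in 0, in both scalings (median 1.82). Over all genes 17.6% were positive as deposited and 7.71% rescaled. Lyz2, lysozyme of myeloid cells, fell from a mean of 3228 to 1492 TPM in F/F and from 2414 to 227 TPM in W/F (difference 3.01 ± 0.60, limma adjusted p = 0.00105), and shares 15.4% of its exon windows. Cx3cr1, the fractalkine receptor, fell by 2.55 in W/F and was not called in F/F (difference 2.28 ± 0.39, limma adjusted p = 0.000246). Clec7a, the beta-glucan receptor dectin-1, averaged 85.7 and 84.3 TPM in F/F and 209 and 11.3 TPM in W/F (difference 4.74 ± 0.60, limma adjusted p = 7.17e-06). Ear2, an eosinophil-associated ribonuclease sharing 41.5% of its windows, rose by 1.13 in F/F and fell by 3.02 in W/F (difference 4.16 ± 0.58, limma adjusted p = 2.8e-05).

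Inflammatory cytokines and receptors were positive in 8 of 14 and negative in 0 (median 1.61), and in 7 after rescaling (17.6% and 7.71% of all genes were positive). In W/F 13 fell in either scaling (59.3% of all genes fell as deposited). In F/F 7 fell as deposited and 2 after rescaling (31.2% and 7.98% of all genes). Cd14, the co-receptor for endotoxin, had 185, 291, 263 and 283 TPM in F/F vehicle and 123, 76.0, 44.2 and 147 in F/F T0901317. With 1 normal allele it had 161, 168, 291 and 273 TPM with vehicle and 3.60, 38, 4.55 and 4.54 with T0901317 (difference 3.15 ± 0.69, limma adjusted p = 0.00237). Treated W/F libraries lay below all treated F/F libraries. Ccl2, the monocyte attractant, fell by 1.5 in F/F and by 4.07 in W/F, with a difference of 2.56 ± 0.79 (limma adjusted p = 0.0233). That call was lost without W/F T0901317 replicate 1, 3 or 4 (highest adjusted p 0.0683), and without replicate 2, the treated library with 24.9 TPM of Ccl2 against under 1 in the others, the difference was 3.53. The count of the list was 13 without W/F T0901317 replicate 2 and 5 without replicate 1 or 4 of that group.

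The 7 genes of MHC class II presentation rest on the same libraries. As deposited 6 were positive (median 2.38) and after rescaling 3 (17.6% and 7.71% of all genes were positive). H2-Aa, a class II alpha chain, had 163, 125, 94.1 and 132 TPM in F/F vehicle and 362, 249, 182 and 208 in F/F T0901317. In W/F it had 271, 225, 249 and 202 TPM with vehicle and 31.1, 341, 36.8 and 23.2 with T0901317. Replicate 2 lay above the vehicle range and the other 3 treated W/F libraries below it. The H2-Aa difference was 3.00 ± 0.78 (limma adjusted p = 0.00849), and 3.87 without replicate 2. The count was 7 without that library, 2 without W/F T0901317 replicate 1 or 4 or F/F T0901317 replicate 1, and 3 without W/F T0901317 replicate 3. H2-M2, a non-classical class I gene, rose by 1.73 in F/F and fell by 3.42 in W/F (difference 5.14 ± 0.76, limma adjusted p = 4.42e-05).

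Interferon-stimulated genes had no called difference (limma, 0 of 14, median 0.06; 4 without W/F T0901317 replicate 2). As deposited 11 of 14 fell in F/F (31.2% of all genes fell) and 10 in W/F (59.3% of all genes). After rescaling 5 fell in F/F (7.98% of all genes), and in W/F 4 fell (27.1% of all genes) and 1 rose. Oas1a and Ifit3, which sense and block viral RNA, had differences of 0.71 ± 0.49 (limma adjusted p = 0.316) and -0.65 ± 0.44 (limma adjusted p = 0.301). They share 57.6% and 51.2% of their exon windows with relatives.

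Matrix and myofibroblast genes were positive in 14 of 16 and negative in 0 (median 1.34), and in 10 after rescaling. Over all genes 17.6% were positive as deposited and 7.71% rescaled. In W/F 16 fell in either scaling (59.3% of all genes as deposited and 27.1% rescaled). In F/F 14 fell, and 10 after rescaling (31.2% and 7.98% of all genes). Col1a1, the main fibrillar collagen chain, had 255, 299, 261 and 261 TPM in F/F vehicle and 132, 139, 63.8 and 96.5 in F/F T0901317. Among W/F mice it had 186, 109, 93.1 and 115 TPM with vehicle and 6.36, 27.5, 5.66 and 9.20 with T0901317. Treated and vehicle libraries did not overlap in either genotype, and treated F/F lay above all treated W/F libraries. Col1a1 fell by 1.37 in F/F and 3.49 in W/F on the log2 scale (difference 2.11 ± 0.56, limma adjusted p = 0.00896). In mean TPM it fell further in F/F (269 to 108) than in W/F (126 to 12.2), so the sign turns on the linear scale as for Scd1.

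Timp1, an inhibitor of matrix metalloproteinases, fell by 1.55 in F/F and by 4.53 in W/F (difference 2.98 ± 0.52, limma adjusted p = 0.0003). In mean TPM Timp1 fell further in F/F (76.4 to 26.9) than in W/F (46.9 to 1.82). The mean summed TPM of the matrix list did likewise (1717 to 841 in F/F, 917 to 158.5 in W/F). The count of this list was 9 without F/F T0901317 replicate 1 or W/F T0901317 replicate 1. Of 8 markers of stellate cells, the main source of liver matrix, 6 were positive (median 0.77), and 3 after rescaling. Over all genes 17.6% and 7.71% were positive. Lrat, which esterifies vitamin A in stellate cells, averaged 7.17 and 9.56 TPM in F/F and 16.4 and 6.57 in W/F (difference 1.57 ± 0.21, limma adjusted p = 1.11e-05). Pdgfrb, a growth factor receptor of these cells, fell by 1.67 in W/F (difference 1.25 ± 0.29, limma adjusted p = 0.0038). Stellate markers numbered 3 without F/F T0901317 replicate 2, W/F T0901317 replicate 1 or W/F vehicle replicate 2. The summed stellate marker TPM was 407 to 636 in F/F T0901317 and 199 to 277 in W/F T0901317, and its part in the matrix result was not tested.

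Cell cycle genes were positive in 10 of 18 and negative in 0 (median 1.02), and in 9 after rescaling (17.6% and 7.71% of all genes were positive). Cdc20, an activator of the anaphase-promoting complex, averaged 21.4 ± 5.83 and 17.2 ± 5.98 TPM in F/F and 10.8 ± 0.632 and 1.09 ± 1.04 TPM in W/F (SD, n = 4; difference 2.30 ± 0.48, limma adjusted p = 0.00153). Ccnb2, a mitotic cyclin, fell by 2.81 in W/F and was not called in F/F (difference 2.28 ± 0.43, limma adjusted p = 0.000654). The count was 5 without F/F vehicle replicate 1, 6 without F/F T0901317 replicate 2 or W/F T0901317 replicate 1 or 4, and 14 without W/F T0901317 replicate 2.

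Nrf2 targets, the genes of the antioxidant response, were positive in 6 of 8 (median 1.37), and in 5 after rescaling. Over all genes 17.6% and 7.71% were positive. Hmox1, haem oxygenase 1, fell from a mean of 152 to 25.3 TPM in W/F and averaged 125 and 73.4 TPM in F/F (difference 2.07 ± 0.44, limma adjusted p = 0.00169). Srxn1, sulfiredoxin, fell by 2.55 in W/F (difference 2.08 ± 0.43, limma adjusted p = 0.00142). Of 13 genes of the unfolded protein response and stress, 1 was positive (median 0.15), Atf3, a stress-induced transcription factor. Atf3 fell by 1.39 in F/F and by 4.27 in W/F (difference 2.88 ± 0.53, limma adjusted p = 0.000522).

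Acute phase proteins were positive in 1 of 15 (17.6% of all genes were; median 1.16), Cp, the copper carrier ceruloplasmin. Cp fell from a mean of 876 to 223 TPM in W/F and averaged 764 and 559 TPM in F/F (difference 1.56 ± 0.27, limma adjusted p = 0.000319). In W/F 7 of the 15 fell, against 59.3% of all genes. After rescaling 6 fell and 1 rose (27.1% and 23.6% of all genes). The summed TPM of the list in W/F T0901317 ran from 16190 to 44600, and 6 genes were positive without replicate 2 and 3 without F/F T0901317 replicate 3.

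Genes of fetal liver or of other epithelia held other large differences. Of 6 tested, 3 were positive (Sprr1a, Ly6d and H19) and 1 negative (Npy), in both scalings. Ly6d, a surface protein of squamous epithelium and lymphoid precursors, had 576, 1385, 1071 and 944 TPM in F/F vehicle and 606, 519, 272 and 696 in F/F T0901317. In W/F livers it had 565, 303, 591 and 930 TPM with vehicle and 4.16, 32.1, 3.06 and 2.81 with T0901317. All treated W/F libraries lay far below the other 3 groups, which overlapped. Ly6d fell by 6.27 in W/F and was not called in F/F (difference 5.34 ± 0.72, limma adjusted p = 1.58e-05).

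Sprr1a, a protein of the cornified cell envelope, averaged 87.2 and 75.3 TPM in F/F, and 122 and 0.634 TPM in W/F with at most 17 reads in a treated library (difference 6.0 ± 0.82, limma adjusted p = 1.83e-05). Npy, a neuropeptide, went the other way. It had 9.84, 9.97, 11.9 and 11.2 TPM in F/F vehicle and 0.902, 0.216, 1.00 and 0.814 in F/F T0901317. With 1 normal allele it had 1.48, 0.831, 2.26 and 0.726 TPM with vehicle and 0, 0.658, 0.383 and 0 with T0901317 (difference -1.91 ± 0.27, limma adjusted p = 3.16e-05). The W/F libraries held at most 11 reads of Npy, and with a pseudocount of 0.1 its difference was -1.44 and not called.

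Other genes with large differences belonged to no list. Cfd, complement factor D or adipsin (chr10:79890853-79892655), had 0.370, 0.873, 6.80 and 1.01 TPM in F/F vehicle and 1.11, 0.531, 0.982 and 1.40 in F/F T0901317. In W/F it had 1.41, 0.510, 1.13 and 1.78 TPM with vehicle and 193, 58.0, 115 and 219 with T0901317. Only the treated W/F libraries of these 4 groups were above 7 TPM (difference -6.27 ± 0.80, limma adjusted p = 9.1e-06). Acot1, a cytosolic acyl-CoA thioesterase sharing 19.2% of its exon windows, rose by 2.89 in W/F (difference -2.31 ± 0.51, limma adjusted p = 0.0027). Serpina4-ps1, an annotated pseudogene, rose by 6.32 in W/F from a mean of 1.94 to 295 TPM (difference -4.79 ± 1.04, limma adjusted p = 0.00229). Obox4-ps3, another pseudogene, had at most 8 reads in a library of the other 3 groups and 36 to 65 reads in treated W/F (difference -2.65 ± 0.47, limma adjusted p = 0.000351). Gm11843, a processed pseudogene sharing 26.3% of its windows, fell by 1.92 in F/F and 5.72 in W/F (difference 3.80 ± 0.62, limma adjusted p = 0.000151).

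For markers of the remaining cell types the list medians of the difference were smaller. Hepatocyte markers were positive in 2 of 11 (Alb 0.91 ± 0.27 and Apob 0.55 ± 0.16, limma adjusted p = 0.0187 and 0.0169) and negative in 0. The positive count is near the 17.6% of all genes. After rescaling 0 were positive and 4 negative (7.71% and 6.73% of all genes), so the direction of the called markers depends on the scaling. Apob also lost its call without W/F T0901317 replicate 1, where the positive count was 1. Enzymes of the urea cycle and of liver zonation were positive in 1 of 16 (Cyp1a2, 1.12) and negative in 0, and 0 and 3 after rescaling. Cyp1a2 lost its call without F/F T0901317 replicate 3 or 4 or W/F T0901317 replicate 1.

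Neutrophil markers were positive in 1 of 10 and negative in 3 (median -0.35; 17.6% and 1.61% of all genes). In each genotype 8 of the 10 fell, in either scaling (31.2% of all genes in F/F and 59.3% in W/F as deposited). Ltf, lactoferrin of neutrophil granules, fell from a mean of 8.62 to 1.08 TPM in F/F and from 0.968 to 0.121 TPM in W/F. Its difference was -1.49 ± 0.34 (limma adjusted p = 0.00336), and -0.96 and not called with a pseudocount of 0.1. Camp, an antimicrobial granule peptide, had -1.03 ± 0.28 (limma adjusted p = 0.0108), with 0 to 2 reads in the treated W/F libraries, and its sign turned with that pseudocount (0.45). Ly6g, the third, defines mouse neutrophils and had -0.59, which was not called after rescaling. No W/F library compared, with vehicle or T0901317, held more than 3 reads of Ly6g. Csf3r, their growth factor receptor, fell by 2.53 in W/F (difference 1.94 ± 0.43, limma adjusted p = 0.00268). The summed TPM of 11 neutrophil markers (Mpo, listed but too low to test, included) was 168 to 477 in F/F vehicle, 29.4 to 102 in F/F T0901317, 94.5 to 173 in W/F vehicle and 7.30 to 27.1 in W/F T0901317.

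Markers of T, NK and B cells were called in 0 of 9 by limma (median 0.00), with the smallest adjusted p in Cd79a of B cells (-0.96, 0.0811; called at -1.21 without W/F T0901317 replicate 4) and Nkg7 of cytotoxic cells (0.52, 0.449; called at 1.02 without W/F T0901317 replicate 2). Bile duct markers were called in 1 of 8 (Epcam, 1.25) and endothelial markers in 2 of 11, both negative (Clec4g and Oit3; 5 negative after rescaling, with a median of -0.55). Epcam lost its call in 9 of 16 fits without 1 library and after rescaling. All 8 bile duct markers fell in both genotypes as deposited (31.2% of all genes fell in F/F and 59.3% in W/F). After rescaling 5 fell in F/F (7.98% of all genes) and 7 in W/F (27.1% of all genes). Clec4g, a lectin of sinusoidal endothelium, averaged 24.3 and 27.5 TPM in F/F and 16 and 33.5 TPM in W/F. It rose by 1.05 in W/F, with a difference of -0.89 ± 0.21 (limma adjusted p = 0.00525). Oit3 lost its call in 8 of 16 such fits.

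**Figure D4:**
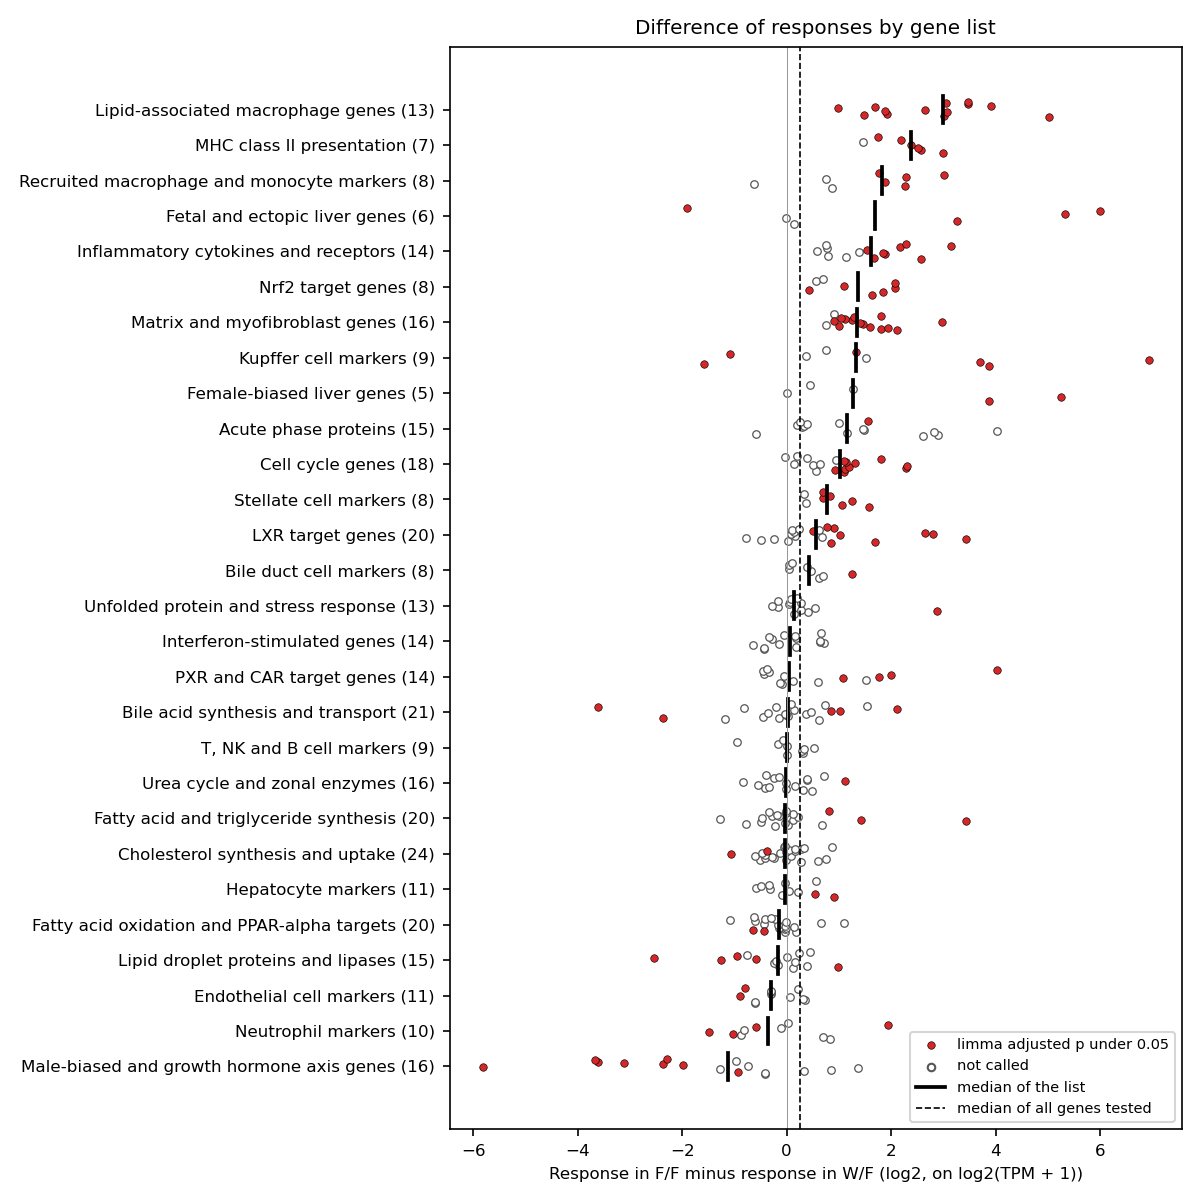
Difference of T0901317 responses (F/F minus W/F, log2) for each member of the gene lists, with red points called by limma, open points not called, a bar at the list median and a dashed line at the median of all genes (0.25). All 13 lipid-associated macrophage genes lie on the positive side, and 8 male-biased genes are called on the negative side.

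For orientation only, the levels in W/W mice on the same diet are given, with no test. Gpnmb averaged 1.18 TPM in W/W vehicle and 1.22 in W/W T0901317, near 3 of the 4 treated W/F libraries. Slco1a1 averaged 174 and 57.2 TPM in W/W, and Cfd 292 and 82.8 TPM. Cd5l averaged 80.5 and 137 TPM in W/W, beside 117 in treated F/F. Scd1 averaged 7896 and 21770 TPM in W/W, above every mutant library with or without T0901317.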

How the data were processed

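Poly(A) RNA of livers was sequenced, and the authors deposited 1 table of TPM values per gene for 36 libraries. Per the submitters' processing notes the tools included Trimmomatic 0.36, STAR 2.5.2b and featureCounts of Subread 1.5.2, with the build GRCm38 (mm10). The annotation release is not given in the sources used here. TPM keeps no read totals, so depth (18.06 to 35.8 M reads) was estimated from the steps of low TPM values, using gene lengths matched for 48970 of 49315 identifiers. Between 92.92% and 94.97% of low values came out whole within 0.1 read, where chance gives 20.0%. No count test was run on these reads.

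A gene entered the tests if 4 or more libraries held it at 1 TPM or above, which left 16638 genes, and each value was taken as log2(TPM + 1). The pseudocount of 1 understates changes of low genes. One limma fit (limma 3.58.1, R 4.3.3) held all 9 groups of genotype, diet and compound, so that all 36 libraries share 1 estimate of spread, and the difference of responses was a contrast with Benjamini-Hochberg adjustment over all genes. The script was tested on simulated data. Rescaling divided each library by its median-of-ratios factor over 14786 genes. Alternatives were that rescaling, another pseudocount, other filters, only the 16 libraries, array weights, a replicate block, and leaving out libraries.

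The genes named are the 12 largest and 12 most negative differences among 1076 genes called in both scalings and in all 16 fits without 1 library, with a mean of at least 5 TPM in 1 group and 1 gene per family of near-identical genes. To these come a fixed set (receptor, LXR target and marker genes) and up to 4 called members of each list, or the 2 with the smallest p where none was called. Other list members are named as examples, chosen after their values were seen. Members, lists and comparisons were chosen with earlier results of these data known. Exon sequence shared with other genes is the percent of 50-base windows found elsewhere in the transcripts. Replicate numbers were compared across groups: correlations of same-numbered libraries' deviations ran from -0.129 to 0.196. Between F/F vehicle and W/F T0901317 the same number was the best match for 4 of 4 libraries (mean correlation 0.0972, other numbers -0.0321). Between the other groups it was so for 0 or 1 of 4. The labels do not state a pairing, and the numbers were not treated as pairs in the main fit. No 2 libraries were identical. Some results on single genes that enter these counts are not reported here.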

Additional observations from a re-analysis of the deposited data

Results flagged for a closer look

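In 43 of 324 sets of 4 libraries (81 named genes in 4 groups), 1 library lay farther from the other 3 than Dixon's 95% limit allows. Chance gives such a gap in about 1 in 20 groups, or 16.2 here. Values are given for 42 of the 43. Of these, 23 were W/F T0901317 replicate 2, which lay above the other 3 treated W/F libraries in each. For genes of macrophages, granulocytes and antigen presentation, its TPM were 367 for Cd5l, 37.7 for Gpnmb, 34.6 for Clec7a, 38.1 for Ear2, 7.97 for Mmp12, 38 for Cd14, 671 for Lyz2, 341 for H2-Aa, 421 for H2-Ab1, 24.9 for Ccl2 and 7.22 for Csf3r. For the other genes they were 32.1 for Ly6d, 12.2 for H2-M2, 992 for Gstm3, 6.18 for Timp1, 9.25 for Atf3, 35.0 for Pltp, 5.52 for Abcc4, 27.5 for Col1a1, 59.2 for Hmox1, 31.8 for Abcg1, 17.4 for Oas1a and 50.2 for Ifit3. The Cd5l difference was 7.57 and the Gpnmb difference 6.06 without this library.

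The other 19 sets were spread over the 4 groups. In F/F T0901317 replicate 1 the library apart had 1.73 TPM of Camp. In F/F T0901317 replicate 2 the library apart had 9.03 TPM of Slco1a1. In F/F T0901317 replicate 3 the library apart had 0.730 TPM of Timd4 and 5.70 TPM of Mup7. In F/F vehicle replicate 1 the library apart had 324 TPM of Gm11843, 17.3 TPM of Scd2 and 0.661 TPM of Hsd3b5. In F/F vehicle replicate 2 the library apart had 299 TPM of Col1a1, 78.1 TPM of Oas1a and 89.3 TPM of Ifit3. In F/F vehicle replicate 3 the library apart had 6.80 TPM of Cfd. In F/F vehicle replicate 4 the library apart had 0.496 TPM of Cyp2b9 and 65.1 TPM of Ebp. In W/F T0901317 replicate 1 the library apart had 428 TPM of Apob and 94.7 TPM of Fasn. In W/F T0901317 replicate 4 the library apart had 5.92 TPM of Epcam. In W/F vehicle replicate 1 the library apart had 23.3 TPM of Pdgfrb and 28.8 TPM of Fasn. In W/F vehicle replicate 2 the library apart had 55.7 TPM of Abcg8.

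The responses of the genotypes differed by the test of the difference itself in 3191 genes, and in 68 of the 81 named genes, 67 of which follow. On the log2 scale the F/F response was above the W/F response by more than 3 in Cd5l (6.93), Sprr1a (6.0), Ly6d (5.34), Cyp2a4 (5.25), H2-M2 (5.14), Gpnmb (5.02), Clec7a (4.74), Ear2 (4.16), Gstm3 (4.03), Mmp12 (3.92), Clec4f (3.88), Cyp2b9 (3.87), Gm11843 (3.80), Scd1 (3.44), Cd14 (3.15) and Lyz2 (3.01). It was above by 2 to 3 in H2-Aa (3.00), Timp1 (2.98), Atf3 (2.88), Pltp (2.80), H2-Ab1 (2.57), Ccl2 (2.56), Cdc20 (2.30), Ccnb2 (2.28), Cx3cr1 (2.28), Abcc4 (2.12), Col1a1 (2.11), Srxn1 (2.08), Hmox1 (2.07) and Abcb1a (2.00). Smaller positive differences were those of Csf3r (1.94), Abcg1 (1.70), Lrat (1.57), Cp (1.56), Scd2 (1.43), Pdgfrb (1.25), Epcam (1.25), Cyp1a2 (1.12), Abcc2 (1.03), Plin3 (0.98), Alb (0.91), Abca1 (0.84) and Apob (0.55). The F/F response was below the W/F response in Ebp (-0.37), Cpt2 (-0.43), Oit3 (-0.79), Clec4g (-0.89), Camp (-1.03), Tm7sf2 (-1.07), Cd163 (-1.08), Fitm1 (-1.26), Ltf (-1.49), Timd4 (-1.58) and Npy (-1.91). It was further below in Cyp4a12b (-2.28), Sult2a8 (-2.29), Acot1 (-2.31), Cyp7b1 (-2.37), G0s2 (-2.54), Obox4-ps3 (-2.65), Elovl3 (-3.11), Slco1a1 (-3.61), Serpina1e (-3.67), Serpina4-ps1 (-4.79), Hsd3b5 (-5.81), Cfd (-6.27) and Mup7 (-8.23).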

How the results depend on the processing

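The difference of responses was called in 3191 genes, and in 2403 after rescaling, 3303 with a pseudocount of 0.1, 2908 with a filter of 5 TPM, 2561 with no filter and 2452 from the 16 libraries alone. It reached 5156 with array quality weights and 4825 without W/F T0901317 replicate 2 and F/F T0901317 replicate 3. Leaving out 1 library gave 1908 (without W/F T0901317 replicate 1) to 4127 (without replicate 2 of that group). For the F/F response, 5841 genes were called, 2712 after rescaling, 3659 without both libraries, and 3248 (without F/F T0901317 replicate 3) to 6343 (without replicate 1) without 1 library. The genotypes differed in 3552 genes with vehicle and 1762 after rescaling, and in 10409 with T0901317 and 6708 after rescaling. The W/F response, called in 10971 genes, stayed within 1.5 times that count in every alternative run.

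Combined alternatives were chosen after seeing the data. The 16 libraries alone, rescaled, gave 1896 genes for the difference, 2266 for the F/F response, 1381 with vehicle and 6420 with T0901317. Leaving out both libraries and rescaling gave 1864 for the F/F response and 2021 with vehicle. The cause of these shifts was not tested.

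With the replicate number as a block, 3432 genes were called for the difference, and 81 of 81 named genes kept their side of the threshold. The labels do not state that the numbers pair the libraries.

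Of the 81 named genes, 68 were called as deposited, and 61 of these were called after rescaling while 7 were not. The 13 others were called in neither scaling. Camp reversed with a pseudocount of 0.1, from -1.03 to 0.45 (limma adjusted p = 0.709). Of the 68 called genes, 58 were called in all 16 fits without 1 library and 10 lost the call in 1 or more (Cyp2b9, Ccl2, Scd2, Epcam, Cyp1a2, Apob, Cpt2, Oit3, Fitm1 and Cyp7b1). Depth limits Camp, Npy, Timd4, Cd163 and the list member Ly6g, whose libraries hold few reads in some groups.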
